A study of Sus scrofa with 12 samples.

Results

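The genes described here are the pig ZBTB and PHF genes, chosen by name: ZBTB or PHF followed by a number, with an optional letter or L suffix. The count table of 28965 genes held 53 of them, 35 ZBTB and 18 PHF genes, and 51 (34 and 17) had enough counts to be tested. RNA came from pig (Sus scrofa) oocytes stripped of their cumulus cells, at 0, 12, 28 and 44 h of maturation in vitro, with 3 libraries at each time. The series title says that the medium was chemically defined and raises the question of whether such oocytes transcribe genes. The labels give no breed, age, treatment or genotype that would set the groups apart other than time, and they leave unsaid from how many animals, pools or cultures each group was drawn. P-values therefore measure the spread between these libraries, which may be technical.

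ZBTB proteins carry an amino-terminal BTB domain, through which they pair with each other and bind corepressors such as NCOR1 or the ubiquitin ligase scaffold CUL3, and carboxy-terminal zinc fingers that bind DNA. Most of those studied in human and mouse cells repress transcription, and several bind methylated DNA or telomere repeats. PHF proteins are named for the plant homeodomain (PHD) finger, a zinc-binding fold that in many proteins reads the tail of histone H3, and they serve in complexes that modify, remodel or read chromatin. A maturing oocyte goes through meiosis largely on stored RNA, so the RNA held for such genes is part of what the egg can hand to the embryo.

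Each library held between 21877235 and 26015373 gene counts. Levels within a gene are given as CPM, the share of counts rescaled to a common library size, mean ± SD over n = 3 libraries, and levels between genes as the deposited RPKM, which also divides by gene length. Both are shares of a library, so fewer cells of a type and less RNA per cell cannot be told apart. A share can also rise with no gain in copies where other RNA is lost. Rises, gains and falls below are therefore changes in share, and copies per oocyte are not given by these values. In a multidimensional scaling of all tested genes, 12 h replicate 5 stood apart on dimension 2, at -1.55. The 9 oocyte markers found, such as ZP2 and GDF9, summed to between 11625 and 13996 CPM at 0 h and between 7443 and 7471 CPM at 44 h, so the defining transcripts of oocytes were present. The 15 cumulus and granulosa markers found summed to between 74.1 and 85.9 CPM at 0 h and between 94.6 and 96.5 CPM at 44 h. Most of that was VCAN, a matrix proteoglycan, at a mean of 81.0 CPM, while FSHR, the receptor that defines granulosa cells, was at 0 in every library, which allows up to 0.137 CPM (3 counts) in the shallowest; such limits cover counting error only. The 8 theca, stroma and blood markers summed to between 33.8 and 40.0 CPM at 0 h. At 44 h they summed to between 26.1 and 30.8 CPM. Most of that was PECAM1, at 27.8 ± 2.07 CPM (0 h) and 21.1 ± 2.65 CPM (44 h). COL1A2 stood at 7.54 ± 0.975 and 4.56 ± 0.299 CPM, and CYP17A1 at 0 throughout. Of the 5 tested in this list, edgeR called 2 lower and 0 higher at 44 h, beside 11.6% and 8.3% of all tested genes. The oocyte sum and the theca, stroma and blood sum were thus lower at 44 h than at 0 h. The cumulus and granulosa sum was higher, as was the sum of ZBTB and PHF genes below. The part of these markers in the results below was not tested.

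Per gene length, PHF transcripts were the more abundant family. The median PHF gene stood at 9.68 RPKM, averaged over the 12 libraries, with a range of 0.0193 to 107.2 RPKM, and the median ZBTB gene at 1.29 RPKM, with a range of 0.0336 to 122 RPKM. Of 35 ZBTB genes, 16 were below 1 RPKM and 4 were at 10 RPKM or more; of 18 PHF genes, 1 was below 1 RPKM and 9 were at 10 RPKM or more. The median of all tested genes was 3.90 RPKM. These are descriptions of level, with no test between families.

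The highest of all was ZBTB33, which encodes Kaiso, a protein that binds methylated CpG pairs and partners the catenin CTNND1. It lies on chromosome X from 98397279 to 98411032 of Sscrofa11.1 (ENSSSCG00000012608) and averaged 122 RPKM, above 98.5% of tested genes. PHF13 followed at 107.2 RPKM (ENSSSCG00000027869, chromosome 6, 67445977 to 67454191); it reads methylated histone H3 and takes part in chromatin compaction. PHF19, an accessory subunit that brings the Polycomb complex PRC2 to chromatin, averaged 81.0 RPKM (ENSSSCG00000005510, chromosome 1, 260899450 to 260920111). PHF3, which binds the phosphorylated tail of RNA polymerase II, averaged 55.5 RPKM (ENSSSCG00000035259, chromosome 1, 45219440 to 45296400). PHF20L1, a reader of methylated lysine that protects DNMT1 from degradation in human and mouse cells, averaged 32.1 RPKM (ENSSSCG00000005950, chromosome 4, 8394861 to 8468513). The other ZBTB genes at 10 RPKM or more were ZBTB10 (31.2 RPKM), ZBTB39 (26.6 RPKM) and ZBTB34 (16.7 RPKM). The other PHF genes at that level were the SIN3 complex subunit PHF12 (32.1 RPKM), PHF11 (25.3 RPKM), PHF14 (14.1 RPKM), the histone demethylase PHF8 (12.7 RPKM) and PHF23 (11.6 RPKM).

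**Figure D1:**
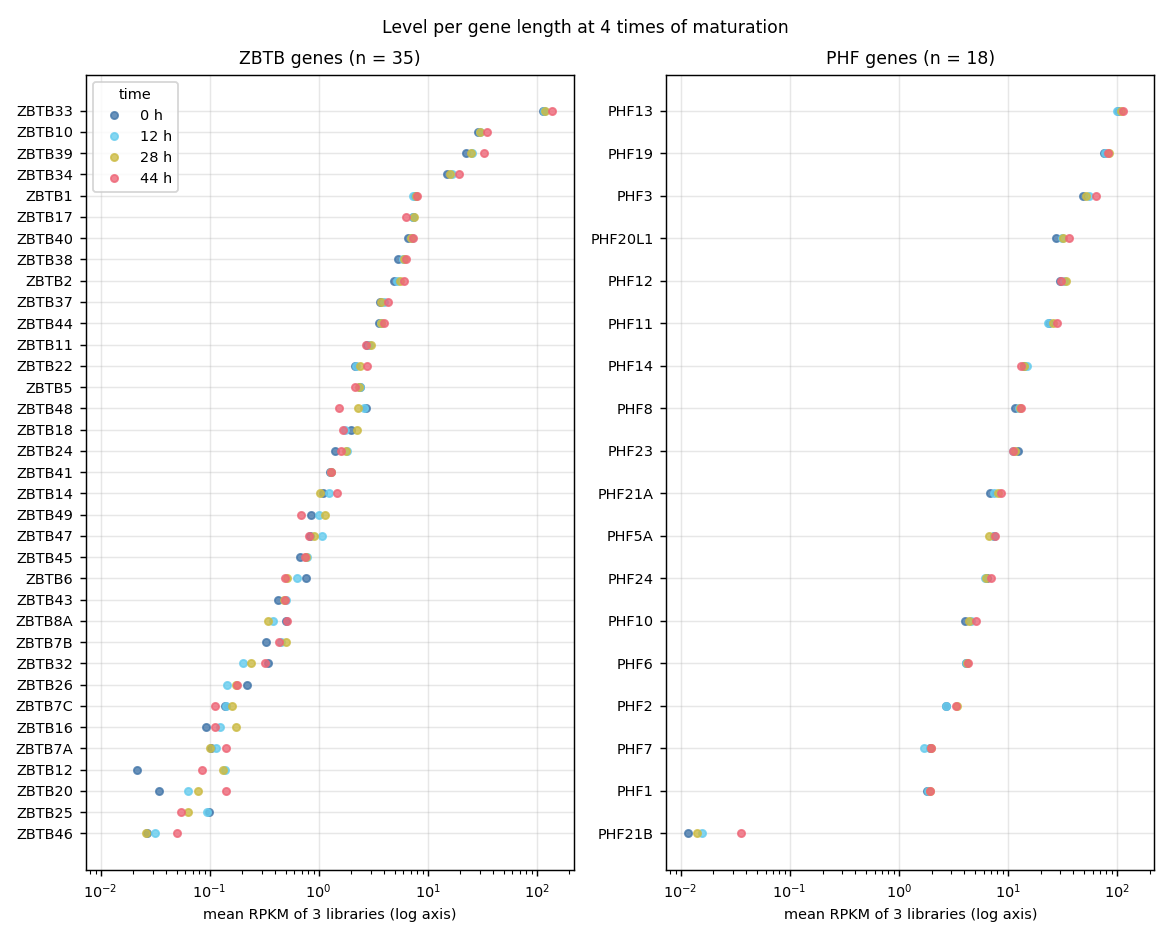
Mean deposited RPKM of each ZBTB and PHF gene at 0, 12, 28 and 44 h (n = 3 libraries per time), on a log axis, ordered by level. ZBTB33 at 122 RPKM and PHF13 at 107.2 RPKM lead, 16 of 35 ZBTB genes and 1 of 18 PHF genes lie below 1 RPKM.

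At the low end, PHF21B and ZBTB46, a marker of dendritic cells in mouse and human, failed the filter on low counts, with 1 to 14 and 0 to 11 counts per library. The 7 lowest tested genes were all ZBTB genes: ZBTB26 (0.180 RPKM), ZBTB7C (0.138 RPKM), ZBTB16 (0.126 RPKM), ZBTB7A (0.115 RPKM), ZBTB12 (0.0946 RPKM), ZBTB20 (0.0796 RPKM) and ZBTB25 (0.0777 RPKM). ZBTB16 encodes PLZF, known from spermatogonial stem cells, ZBTB7A represses fetal globin, and ZBTB20 represses alpha-fetoprotein in mouse liver. By an Ensembl name table, ZBTB8B and PHF20 were also in the table under identifiers alone. ZBTB8B had 15 to 31 counts per library and PHF20 had 0 in each, and neither was counted, since the files do not name them. The identifiers that the name table gives for ZBTB21 and ZBTB9 were absent from the count table, so these genes were not analysed here.

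Taken as a sum, ZBTB and PHF transcripts made up 0.381% to 0.410% of the counts of a library at 0 h and 0.445% to 0.457% at 44 h. The summed level was 3898 ± 190 CPM at 0 h, 4149 ± 123 CPM at 12 h, 4169 ± 91.9 CPM at 28 h and 4529 ± 45.1 CPM at 44 h. The lowest 44 h library, at 4494 CPM, lay above the highest 0 h library, at 4108 CPM. Of the difference of 631 CPM between the means, 5 genes gave 70.4%: PHF3 (167 CPM), ZBTB33 (86.1 CPM), PHF13 (66.2 CPM), PHF20L1 (63.1 CPM) and ZBTB10 (62.3 CPM). CPM favours long and abundant transcripts, so this sum describes few genes.

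The comparison of 44 h with 0 h spans the whole of maturation. In it, 10 of 51 tested genes rose and 2 fell in edgeR (quasi-likelihood test, Benjamini-Hochberg adjustment over all 12977 tested genes, adjusted p under 0.05). Among all tested genes 8.3% were higher and 11.6% lower at 44 h, 19.9% in all. Of the ZBTB genes, 5 of 34 rose (ZBTB39, ZBTB22, ZBTB34, ZBTB33 and ZBTB10) and 2 fell (ZBTB48 and ZBTB6). Of the PHF genes, 5 of 17 rose (PHF3, PHF20L1, PHF10, PHF21A and PHF13) and 0 fell. The rises were small, from 0.17 to 0.53 on the log2 scale, and the falls were -0.65 and -0.81. The median log2 fold change of the 51 genes was 0.15, beside -0.00467 for all tested genes.

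Among the DNA-binding ZBTB genes, ZBTB39 had the largest called rise and the smallest adjusted p. It stood at 60.7, 58.2 and 54.7 CPM in 0 h replicates 2, 3 and 4, at 66.1, 62.5 and 69.3 CPM in 12 h replicates 1, 3 and 5, at 62.2, 62.0 and 68.7 CPM in 28 h replicates 2, 3 and 4, and at 89.4, 86.5 and 75.5 CPM in 44 h replicates 1, 2 and 4. All 44 h libraries lay above all others, and all 12 h libraries above all 0 h libraries, while 12 and 28 h overlapped. From 0 to 44 h the log2 fold change was 0.53 (SE 0.08, edgeR adjusted p = 4.39e-05). Its gene model is a single short span (ENSSSCG00000037617, chromosome 5, 22312521 to 22314655).

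ZBTB33 held 388, 411 and 389 CPM at 0 h, 429, 389 and 423 CPM at 12 h, 402, 409 and 429 CPM at 28 h, and 499, 482 and 465 CPM at 44 h, in that order of replicates, which is kept below. The 44 h libraries stood above all others, and the earlier times overlapped each other. The log2 fold change from 0 to 44 h was 0.28 (SE 0.06, edgeR adjusted p = 0.00181). CTNND1, its catenin partner, measured 1154 ± 25.9 CPM (0 h) and 1299 ± 65.9 CPM (44 h) and did not pass the test (edgeR adjusted p = 0.0519).

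ZBTB34 (ENSSSCG00000031426, chromosome 1, 267436990 to 267465619) stood at 135, 137 and 117 CPM at 0 h and 162, 165 and 166 CPM at 44 h. The 12 h libraries held 136, 129 and 166 CPM, the last of these in replicate 5, and the 28 h libraries 135, 139 and 131 CPM. The 0 and 44 h groups did not overlap, and the 12 h group reached from the one to the other. Its log2 fold change from 0 to 44 h was 0.34 (SE 0.08, edgeR adjusted p = 0.00468).

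ZBTB10, which binds variant telomere repeats in human cells (ENSSSCG00000006155, chromosome 4, 56136033 to 56175296), was spread widely at 0 h, at 320, 374 and 288 CPM, and narrowly at 44 h, at 386, 389 and 394 CPM. The 12 h libraries held 369, 332 and 332 CPM and the 28 h libraries 311, 362 and 335 CPM. The 0 and 44 h groups did not overlap, with 0 h replicate 3 nearest to the 44 h libraries, and the 12 and 28 h groups lay within the span of the 0 h libraries. The log2 fold change from 0 to 44 h was 0.25 (SE 0.08, edgeR adjusted p = 0.0279). Its call ended when replicate 2 or 4 of 0 h or any library of 44 h was omitted (edgeR adjusted p up to 0.177).

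ZBTB22, a gene of the extended major histocompatibility region (ENSSSCG00000001507, chromosome 7, 29663446 to 29676335), stood at 14.4, 13.8 and 16.6 CPM at 0 h and 18.3, 20.4 and 18.7 CPM at 44 h. Between them it held 14.4, 16.1 and 15.4 CPM at 12 h and 18.8, 14.7 and 16.2 CPM at 28 h. The 0 and 44 h groups did not overlap, and the 28 h group overlapped both. The log2 fold change from 0 to 44 h was 0.36 (SE 0.12, edgeR adjusted p = 0.0415), and the call ended under 9 of 17 alternatives (edgeR adjusted p up to 0.148), among them the omission of replicate 2 or 3 of 0 h, replicate 4 of 28 h or any library of 44 h.

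The 2 falls were in scarcer genes. ZBTB48, known as TZAP, binds telomere repeats and sets off the trimming of long telomeres in human cells (ENSSSCG00000003383, chromosome 6, 67410595 to 67421216). It stood at 19.0, 16.2 and 18.7 CPM at 0 h, 14.8, 16.7 and 20.6 CPM at 12 h, 17.4, 15.2 and 13.3 CPM at 28 h, and 11.7, 7.10 and 12.1 CPM at 44 h. All 44 h libraries were below all others, and 44 h replicate 2 was the lowest. From 0 to 44 h the log2 fold change was -0.81 (SE 0.17, edgeR adjusted p = 0.00151). ZBTB48 overlaps KLHL21 on the other strand, and the library kit keeps strand, but whether the counting used it is not given in the sources used here. KLHL21 measured 61.3 ± 13.9 CPM (0 h) and 61.8 ± 19.2 CPM (44 h) (edgeR adjusted p = 0.986).

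ZBTB6 stood at 6.47, 4.04 and 4.81 CPM at 0 h, 3.45, 3.72 and 5.62 CPM at 12 h, 3.60, 3.57 and 3.19 CPM at 28 h, and 3.004, 3.49 and 3.28 CPM at 44 h. The 0 and 44 h groups did not overlap. Its log2 fold change was -0.65 (SE 0.23, edgeR adjusted p = 0.0498), at the edge of the threshold, and 12 of 17 alternatives ended the call, among them RLE scaling and omitting any library of 28 or 44 h, replicate 2 or 4 of 0 h, or replicate 3 of 12 h (edgeR adjusted p up to 0.293). Its gene model overlaps that of ZBTB26 on the same strand by 15633 bases (chromosome 1, 263823857 to 263846856 for ZBTB6 and 263831224 to 263846907 for ZBTB26), so the counts of both genes are uncertain.

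**Figure D2:**
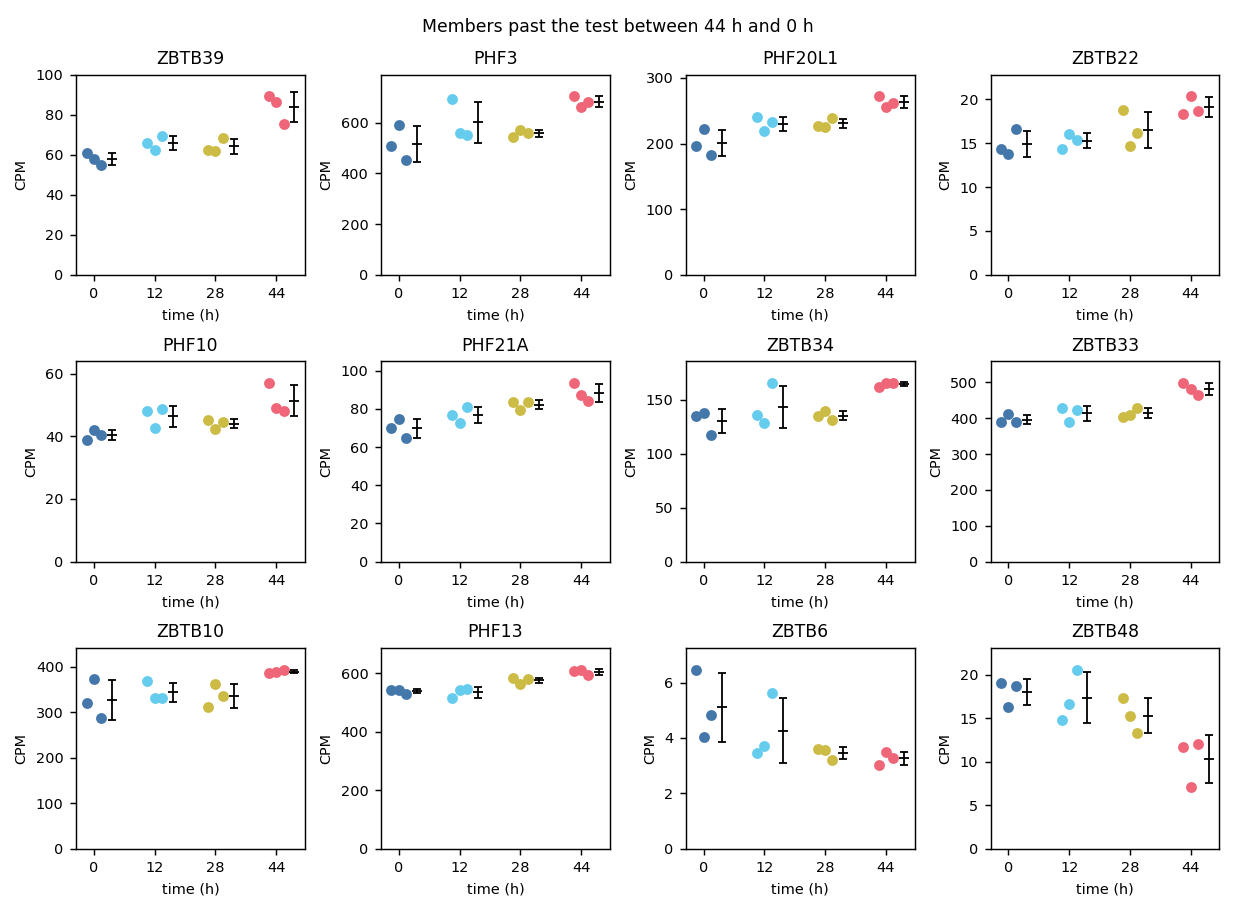
CPM in each library of the 12 genes that passed the test between 0 and 44 h, by time, with each y axis starting at 0 and bars beside the points for the mean ± SD of 3 libraries. In each gene the 0 and 44 h libraries do not overlap; 10 genes are higher and ZBTB48 and ZBTB6 are lower at 44 h.

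Among the PHF genes that rose, PHF3 gained most on the CPM scale. The 0 h libraries held 507, 591 and 451 CPM, the 12 h libraries 694, 559 and 549 CPM, the 28 h libraries 543, 571 and 558 CPM, and the 44 h libraries 705, 663 and 682 CPM. The 44 h libraries lay above all 0 and 28 h libraries, and 12 h replicate 1 lay among them. The log2 fold change from 0 to 44 h was 0.40 (SE 0.09, edgeR adjusted p = 0.00232).

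PHF20L1 stood at 196, 222 and 183 CPM at 0 h, 240, 218 and 233 CPM at 12 h, 227, 225 and 239 CPM at 28 h, and 272, 255 and 263 CPM at 44 h. The 44 h libraries were above all others, the 28 h libraries above all 0 h libraries, and the 12 and 28 h groups overlapped. Its log2 fold change from 0 to 44 h was 0.39 (SE 0.07, edgeR adjusted p = 0.000244).

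PHF21A encodes BHC80, the reader of unmethylated histone H3 in the LSD1-CoREST corepressor (ENSSSCG00000023974, chromosome 2, 16344139 to 16545274). Its libraries ran from 69.8, 74.6 and 65.0 CPM at 0 h through 76.7, 72.4 and 80.9 CPM at 12 h and 83.5, 79.3 and 83.5 CPM at 28 h to 93.6, 87.2 and 84.3 CPM at 44 h. The 28 h group lay above the 0 h group and below the 44 h group, and the 12 h group overlapped its neighbours in time. The log2 fold change from 0 to 44 h was 0.34 (SE 0.08, edgeR adjusted p = 0.00246).

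PHF10 encodes BAF45A, a subunit particular to the PBAF chromatin remodeller (ENSSSCG00000030155, chromosome 1, 555355 to 576713). It stood at 38.8, 41.9 and 40.4 CPM at 0 h, 48.0, 42.5 and 48.6 CPM at 12 h, 45.1, 42.4 and 44.5 CPM at 28 h, and 57.0, 49.1 and 48.0 CPM at 44 h. All 12, 28 and 44 h libraries lay above the 0 h libraries. The log2 fold change from 0 to 44 h was 0.35 (SE 0.09, edgeR adjusted p = 0.00727), and the call ended without 44 h replicate 1 (edgeR adjusted p = 0.0751). PHF10 overlaps C6orf120 on the other strand, which measured 31.8 ± 2.45 CPM (0 h) and 30.4 ± 2.35 CPM (44 h) (edgeR adjusted p = 0.734).

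PHF13 had the smallest called rise and tight replicates, at 542, 543 and 529 CPM at 0 h, 514, 544 and 545 CPM at 12 h, 582, 565 and 580 CPM at 28 h, and 608, 612 and 594 CPM at 44 h. The 28 h libraries lay above all earlier ones and below all 44 h libraries. Its log2 fold change from 0 to 44 h was 0.17 (SE 0.06, edgeR adjusted p = 0.0395). The call ended under 11 of 17 alternatives, among them library totals alone and omitting any library of 0 or 44 h or replicate 2 or 3 of 28 h (edgeR adjusted p up to 0.120).

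PHF19, the PRC2 accessory subunit, stood at 397, 411 and 432 CPM at 0 h, 414, 461 and 398 CPM at 12 h, 434, 458 and 479 CPM at 28 h, and 438, 445 and 473 CPM at 44 h. The 0 and 44 h groups did not overlap, yet the gene did not pass the test (log2 fold change 0.13, 95% interval -0.01 to 0.27, edgeR adjusted p = 0.196).

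Of the 12 genes called between 0 and 44 h, 7 stayed past the threshold under each of the 17 alternatives: ZBTB39, ZBTB33, ZBTB34, ZBTB48, PHF3, PHF20L1 and PHF21A. Groups did not overlap for 18 genes that were higher and 2 that were lower at 44 h, where 15.8% and 17.7% of all tested genes were in each state. Of the 18 higher genes, the 8 that did not pass the test were PHF2, PHF8, PHF11, PHF19, ZBTB2, ZBTB14, ZBTB37 and ZBTB45.

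The other 39 tested genes did not pass between 0 and 44 h, 27 with a higher and 12 with a lower fitted level, and the intervals widened as the level fell. At 50 CPM or more, 8 genes (PHF8, PHF11, PHF12, PHF14, PHF19, ZBTB1, ZBTB37 and ZBTB38) had log2 fold changes between -0.09 and 0.24, with 95% intervals inside -0.26 to 0.46. The 14 genes at 10 to 50 CPM (PHF1, PHF2, PHF5A, PHF6, PHF23, PHF24, ZBTB2, ZBTB5, ZBTB11, ZBTB17, ZBTB18, ZBTB40, ZBTB41 and ZBTB44) lay between -0.24 and 0.29, with intervals inside -0.55 to 0.54. The 8 at 2 to 10 CPM (PHF7, ZBTB7B, ZBTB14, ZBTB24, ZBTB43, ZBTB45, ZBTB47 and ZBTB49) lay between -0.30 and 0.42, with intervals inside -0.84 to 1.01. The 9 below 2 CPM were ZBTB7A, ZBTB7C, ZBTB8A, ZBTB12, ZBTB16, ZBTB20, ZBTB25, ZBTB26 and ZBTB32. They lay between -0.87 and 2.01, with intervals inside -1.99 to 3.76. Their median SE was 0.50, and a change of less than several-fold was not detectable at this depth.

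By level, of the 16 genes at 50 CPM or more, 8 rose and 0 fell, where 20.5% of all tested genes at that level were higher and 12.8% lower. Of 17 genes at 10 to 50 CPM, 2 rose and 1 fell, where 3.83% and 17.6% of all genes did. Of 9 at 2 to 10 CPM, 0 rose and 1 fell, beside 1.53% and 9.91% of all genes. Below 2 CPM edgeR and DESeq2 called 0 of 9, beside 0.83% higher and 2.28% lower among all genes by edgeR, and ZBTB12 and ZBTB20 had an unadjusted edgeR p under 0.05. ZBTB20 passed without 44 h replicate 1 (log2 fold change 2.49, edgeR adjusted p = 0.0290). It had 2, 4 and 7 counts at 0 h and 4, 38 and 13 at 44 h, and these groups overlapped. Across all 12977 genes, the log2 fold change from 0 to 44 h also rose with the length of the gene model (Spearman correlation 0.21 across genes, which are not independent), and the median ZBTB or PHF gene had a length at percentile 61.5. The part of level and length in the members' changes was not tested.

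**Figure D3:**
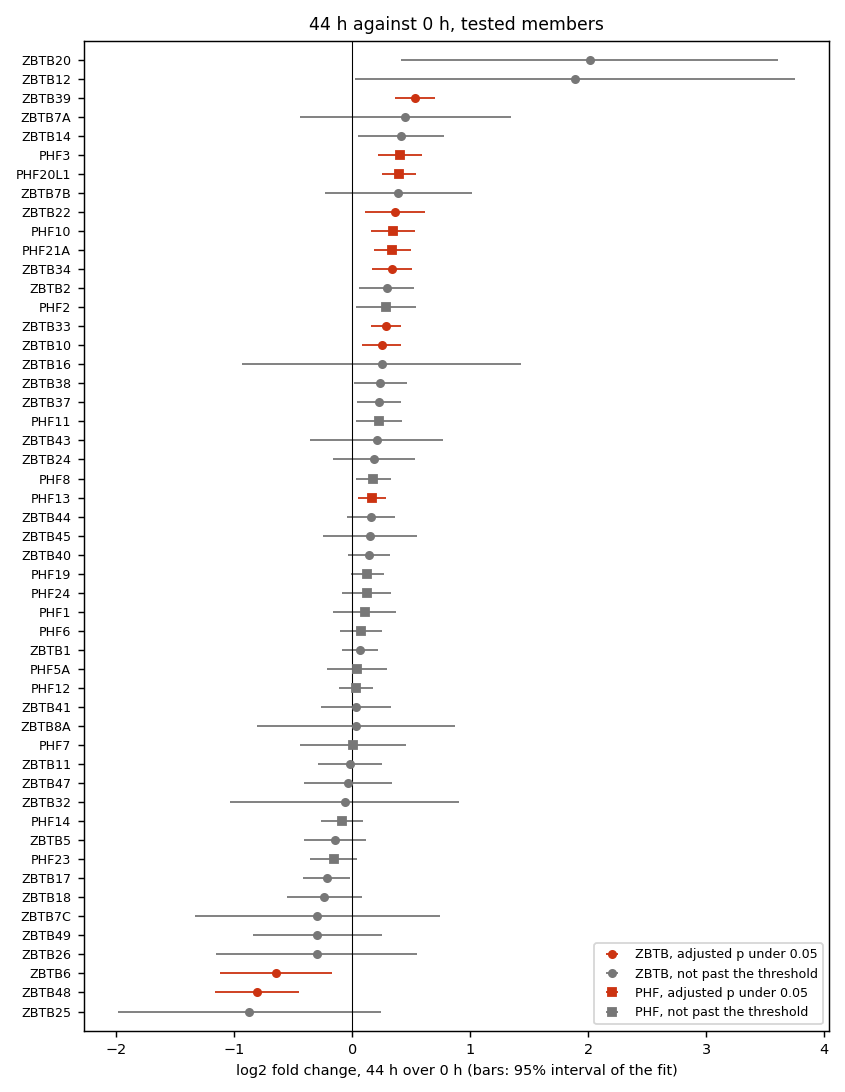
Log2 fold change of each of the 51 tested genes from 0 to 44 h with its 95% interval, ordered by size; red points passed the test (adjusted p under 0.05), grey ones did not, and circles are ZBTB and squares PHF genes. The 10 called rises lie between 0.17 and 0.53, the called falls are at -0.65 and -0.81, and the widest intervals belong to genes below 2 CPM.

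Along the steps, few calls fell within any one interval. Between 0 and 12 h edgeR and DESeq2 each called 0 of 51, where edgeR called 0.208% of all tested genes (0.177% higher and 0.0308% lower). At an unadjusted p under 0.05 there were 6 genes (11.8%, beside 11.3% of all tested genes), each with a higher mean at 12 h: PHF3, PHF10, PHF20L1, ZBTB12, ZBTB24 and ZBTB39. PHF20L1 passed once 0 h replicate 3 was left out (edgeR adjusted p = 0.0400). ZBTB24, a DNA methylation factor mutated in the ICF immunodeficiency syndrome, measured 6.36 ± 0.847 CPM (0 h) and 8.31 ± 1.35 CPM (12 h). ZBTB12 had 1, 4 and 0 counts at 0 h and 8, 9 and 13 at 12 h, then 7, 14 and 8 at 28 h and 12, 3 and 5 at 44 h. The 0 and 12 h groups did not overlap, and the difference did not pass once adjusted over all tested genes (edgeR adjusted p = 0.293). The groups of 6 genes lay higher and of 1 lower at 12 h without overlap, where 6.3% and 7.05% of all tested genes did.

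Between 12 and 28 h both tools again called 0 of 51, where edgeR called 0.262% of all tested genes (0.108% higher and 0.154% lower). PHF2, a histone demethylase, and ZBTB18, a repressor of neuronal genes, had an unadjusted p under 0.05, and these were the 2 such genes (3.92%, beside 6.25% of all tested genes). PHF2 measured 18.2 ± 2.61 CPM (12 h) and 22.3 ± 1.295 CPM (28 h), and ZBTB18 measured 12.3 ± 2.67 and 15.6 ± 0.236 CPM. Neither was past the threshold after adjustment. The groups of 3 genes lay higher and of 1 lower at 28 h without overlap, where 5.35% and 6.17% of all tested genes did.

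Set against 0 h, the 28 h libraries also gave 0 calls of 51 by edgeR and by DESeq2, where edgeR called 2.66% of all tested genes (0.609% higher and 2.05% lower), and 7 genes had an unadjusted p under 0.05 (13.7%, beside 13.6% of all tested genes). They were PHF2, PHF12, PHF19, PHF20L1, PHF21A, ZBTB6 and ZBTB12. Without 0 h replicate 3, PHF20L1 (edgeR adjusted p = 0.0174) and PHF21A (edgeR adjusted p = 0.0486) passed. That library held the highest 0 h level of both. The 0 and 28 h groups did not overlap for 14 genes that were higher and 1 that was lower at 28 h, where 9.02% and 9.71% of all tested genes were.

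Between 28 and 44 h, 2 of 51 genes rose, ZBTB39 and ZBTB33, and 0 fell by the adjusted edgeR test. Among all tested genes 0.393% were higher and 4.3% lower in this step, 4.69% in all. ZBTB39 had a log2 fold change of 0.38 (SE 0.08, edgeR adjusted p = 0.00453) and ZBTB33 one of 0.22 (SE 0.06, edgeR adjusted p = 0.0366). ZBTB39 kept its call under all 17 alternatives, and ZBTB33 lost it under 5, among them the omission of replicate 2 or 3 of 28 h or of replicate 1 or 2 of 44 h (edgeR adjusted p up to 0.176). Close to the threshold stood ZBTB34 (edgeR adjusted p = 0.0502), ZBTB48 (0.0591) and PHF3 (0.0624), and 13 genes (25.5%) had an unadjusted p under 0.05, beside 15.4% of all tested genes. The count was 4 when replicate 3 or 4 of 0 h or replicate 1 of 12 h was omitted, with PHF3 and ZBTB34 added. It was 5 without 12 h replicate 5, with ZBTB48 added as well, and 1 when replicate 2 or 3 of 28 h or replicate 1 of 44 h was omitted. Of these genes, PHF3, ZBTB34, ZBTB39 and ZBTB33 were higher and ZBTB48 lower at 44 h, all with groups that did not overlap. ZBTB49 was called lower without 44 h replicate 2 (log2 fold change -1.07, edgeR adjusted p = 0.0300), though with all libraries its 28 and 44 h groups overlapped. DESeq2 also called ZBTB14 higher (log2 fold change 0.54, DESeq2 adjusted p = 0.0494). In all, 11 genes were higher and 3 lower at 44 h than at 28 h without overlap, where 9.8% and 13.3% of all tested genes were.

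Whether the last step differed from the first part of maturation was tested directly, as the change from 28 to 44 h minus that from 0 to 28 h. Both tools called 0 of 51, where edgeR called 0.408% of all tested genes. PHF12, ZBTB12, ZBTB18 and ZBTB49, 4 in all (7.84%), had an unadjusted p under 0.05, beside 5.31% of all tested genes. The late steps of ZBTB39 and ZBTB33 are therefore not shown to differ from their earlier ones. PHF12, which had the lowest unadjusted p of these 4, stood at 231 ± 11.5 CPM at 0 h, 252 ± 10.9 CPM at 12 h, 261 ± 21.7 CPM at 28 h and 236 ± 11.5 CPM at 44 h.

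Over all 4 times together, 8 of 51 genes changed by the adjusted edgeR test, beside 13.1% of all tested genes: ZBTB39, ZBTB33, ZBTB34, ZBTB48, PHF3, PHF10, PHF20L1 and PHF21A. ZBTB39 (edgeR adjusted p = 0.000309) and PHF20L1 (edgeR adjusted p = 0.00278) passed under each alternative. PHF10 was at the edge of the threshold (edgeR adjusted p = 0.0487) and lost its call under 12 of 17 alternatives, among them library totals alone and the omission of any library of 28 or 44 h (edgeR adjusted p up to 0.264). The count fell to 5 without 0 h replicate 2 or 44 h replicate 4, to 4 without 44 h replicate 2 and to 3 without 44 h replicate 1. By order of the means alone, 26 of 51 genes (51.0%) were highest at 44 h, where 32.5% of all tested genes were, and 8 (15.7%) rose in mean at every step, where 11.0% of all genes did.

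Of these genes, 5 pairs lie within 200000 bases of each other, and pairs differ in level per length. PHF13 and ZBTB48 lie 24760 bases apart on the same strand of chromosome 6, at 107.2 and 2.30 RPKM, a ratio of 46.7; PHF13 rose and ZBTB48 fell between 0 and 44 h. ZBTB1 and ZBTB25 start 355 bases apart on opposite strands of chromosome 7. ZBTB1, needed for lymphoid development in mouse, averaged 7.70 RPKM and ZBTB25 averaged 0.0777 RPKM, a ratio of 99.04. ZBTB34 and ZBTB43 lie 23389 bases apart on chromosome 1, at 16.7 and 0.479 RPKM, a ratio of 35.0. PHF1, another Polycomb accessory subunit, and ZBTB22 lie 18563 bases apart on chromosome 7 at 1.88 and 2.37 RPKM. The fifth pair is ZBTB6 and ZBTB26, with 0.600 and 0.180 RPKM in overlapping models. Of all 53 genes, 17 overlap another gene, 8 on the same and 11 on the other strand, and their counts are uncertain to that extent.

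**Figure D4:**
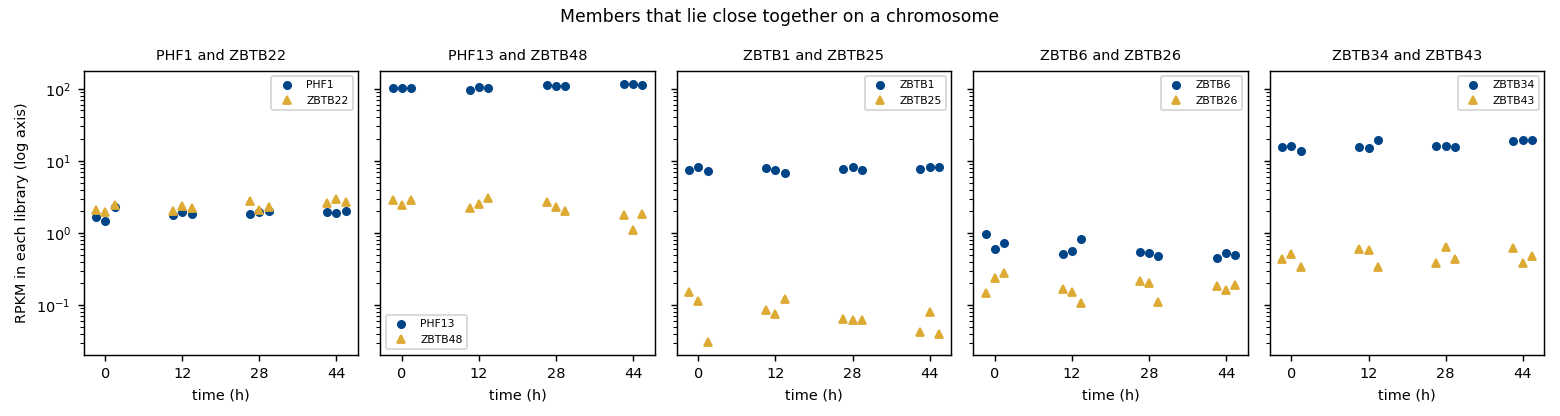
Deposited RPKM in each library, on a log axis shared by all panels, for 5 pairs of ZBTB or PHF genes within 200000 bases of each other, by time. ZBTB1 and ZBTB25, whose models are 355 bases apart, differ by a ratio of 99.04 in mean RPKM, while PHF1 and ZBTB22 lie close together.

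The complexes in which these proteins work were followed through lists of their other members. The counts below are to be read beside 8.3% higher and 11.6% lower among all tested genes, and 20.5% and 12.8% among those at 50 CPM or more. For the BTB family's partners and relatives, 4 of 23 tested genes rose from 0 to 44 h (17.4%) and 0 fell (median log2 fold change 0.17). HIC2, a BTB zinc finger repressor, rose from 47.6 ± 2.52 to 66.6 ± 3.33 CPM (edgeR adjusted p = 0.000144), and the corepressor NCOR1 from 129 ± 4.51 to 176 ± 14.2 CPM (edgeR adjusted p = 0.000146).

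The PBAF remodeller, to which PHF10 belongs, had 6 of 10 other subunits higher and 1 lower at 44 h (median 0.23). SMARCD1 rose from 160 ± 4.66 to 210 ± 0.886 CPM and SMARCC2 from 203 ± 7.74 to 263 ± 11.9 CPM, whereas SMARCE1 fell from 161 ± 3.19 to 137 ± 9.77 CPM. For the SIN3 deacetylase complex of PHF12, 6 of 14 rose and 1 fell (median 0.16). The demethylase KDM5A rose from 345 ± 32.6 to 442 ± 6.98 CPM and the scaffold SUDS3 from 1075 ± 24.4 to 1264 ± 33.3 CPM, while SAP18 fell from 64.4 ± 5.95 to 40.5 ± 2.60 CPM. In the LSD1-CoREST complex of PHF21A, 2 of 9 rose (22.2%) and 0 fell (median 0.16). The corepressor RCOR2 rose from 77.4 ± 12.6 to 94.6 ± 1.17 CPM.

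PRC2, the partner of PHF1 and PHF19, had 1 of 9 tested genes higher and 0 lower (median 0.08), its methyltransferase EZH1, which rose from 52.2 ± 4.203 to 63.7 ± 2.04 CPM. In the SF3B part of the U2 spliceosome particle, which holds PHF5A, 1 of 6 rose, the helicase DDX42, from 443 ± 16.2 to 520 ± 24.8 CPM (median -0.06). The NSL and MSL acetyltransferase complexes had 2 of 10 higher and 3 lower (median -0.01). MSL1 rose from 111 ± 13.7 to 141 ± 5.04 CPM and KANSL3 from 94.4 ± 5.58 to 109 ± 7.77 CPM, whereas MCRS1 fell from 56.1 ± 6.97 to 29.2 ± 0.700 CPM and WDR5, shared with the MLL methyltransferases, from 274 ± 30.2 to 201 ± 10.6 CPM.

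Genes for PHD finger proteins outside the PHF names had 26 of 59 higher and 2 lower at 44 h (median 0.22), beside 5 of 17 and 0 for the PHF genes. CECR2, a remodeller subunit with no known PHD finger, was in this list and in its counts. It rose from 803 ± 46.1 to 1089 ± 32.6 CPM, and UHRF1, the partner of DNMT1 at hemimethylated DNA, from 494 ± 21.0 to 659 ± 21.2 CPM. Its relative UHRF2 fell from 3761 ± 174 to 3328 ± 85.0 CPM and INTS12, of the Integrator complex, from 133 ± 9.06 to 109 ± 9.90 CPM. By 28 h, 0.609% of all tested genes were higher and 2.05% lower than at 0 h. Higher by then were SMARCD1 and SMARCC2 of PBAF, and CHD3, CECR2 and NSD2 of the list of other PHD finger genes. NSD2 was named after its values were seen. SAP18 of SIN3 was called lower by edgeR, which also made these calls. Between 28 and 44 h, where 0.393% of all tested genes were higher and 4.3% lower, it called SUDS3 higher and MCRS1 and WDR5 lower.

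**Figure D5:**
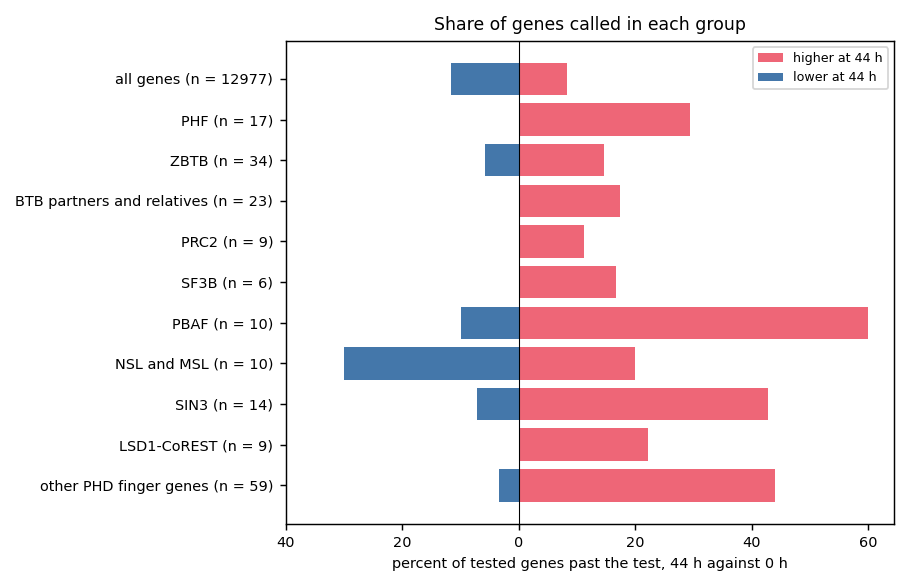
Percentage of tested genes in each list that edgeR called higher or lower at 44 h than at 0 h, with the same for the ZBTB genes, the PHF genes and all tested genes. Called rises make up 44.1% of the list of other PHD finger genes, which includes CECR2, and 60.0% of PBAF subunits. They make up 8.3% of all tested genes and 20.5% of those at 50 CPM or more.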

How the data were processed

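RNA-seq of 12 libraries was analysed from the deposited gene table. Per the file headers, the authors deposited total counts per gene, whole numbers and not normalized, and RPKM values, counts scaled by library and gene length. Per the submitters' processing notes, the genome build was Sscrofa11.1 and DESeq2 was used. The aligner and the rules for strand and for reads matching several genes are not given in the sources used here. The counts were filtered with filterByExpr (minimum count 10; 12977 of 17814 genes with a count kept), scaled by TMM, with factors between 0.979 and 1.02. The model, in edgeR 4.0.16 (R 4.3.3), had 1 mean per time over all 12 libraries and robust estimation (8 residual degrees of freedom, biological coefficient of variation 10.6%). The quasi-likelihood test with Benjamini-Hochberg adjustment over all 12977 genes used a threshold of 0.05, in 7 tests: 12 h and 0 h, 28 h and 12 h, 44 h and 28 h, 28 h and 0 h, 44 h and 0 h, the late minus the early change, and any change over the 4 times. RPKM served only to compare levels between genes and relative gene lengths. At 21877235 to 26015373 counts per library, counting error is smaller at 10 CPM and above than below it. It was not measured apart from the other spread between libraries. None of 66 library pairs had identical counts.

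The ZBTB and PHF genes and the lists of partners, other PHD finger genes and cell markers were chosen with earlier results of these data known. The text names each ZBTB and PHF gene called in any test, with library values for up to 10 rises and 10 falls per comparison, the 5 with the highest RPKM, those failing the filter, and from each list up to 2 rises and 2 falls by smallest adjusted p; names outside this rule were chosen after their values were seen. Alternatives were RLE scaling, library totals alone, no filter beyond a count in 1 library, DESeq2 1.42.0, omission of each library in turn, and a replicate block. The pipeline was tested on simulated data. No sequences are shown, and the values of 1 listed gene are not reported here.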

Additional observations from a re-analysis of the deposited data

How the results depend on the processing

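No gene changed direction under any alternative in a call reported above. Between 44 and 28 h, where 2 genes were called, library totals alone gave 4 (4 higher), no filter 5 (4 higher, 1 lower) and DESeq2 6 (5 higher, 1 lower). For the falls between 44 and 0 h, where 2 were called, RLE scaling, no filter and the replicate block each gave 1. With single libraries left out, the counts ran from 0 to 1 for 12 h and 0 h (0 to 1 higher, 0 to 0 lower), from 0 to 0 for 28 h and 12 h, from 1 to 5 for 44 h and 28 h (1 to 4 higher, 0 to 1 lower), from 0 to 2 for 28 h and 0 h (0 to 2 higher), from 8 to 13 for 44 h and 0 h (7 to 10 higher, 1 to 3 lower), from 0 to 0 for the late minus the early change and from 3 to 10 for any change. Without 0 h replicate 3 ZBTB17, ZBTB37 and ZBTB38 joined the calls between 44 and 0 h, and DESeq2 added PHF8 and ZBTB2. The cause of these shifts was not tested.

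Replicate numbers recur across times. Deviations of same-numbered libraries correlated between -0.00606 and 0.127 in 10 pairs, with 2 over 0.1. Differently numbered libraries were not compared, so this cannot decide whether the numbers pair samples. The main fit took the libraries as unpaired, and the replicate block is an alternative to it. The replicate block gave 2 calls between 44 and 28 h (ZBTB39 and ZBTB34), 9 between 44 and 0 h and 7 for any change. It ended the call of ZBTB33 in the first and those of PHF13, ZBTB22 and ZBTB6 in the second. Replicate 5 occurs only at 12 h and has its own term. Below 2 CPM the standard errors allow no statement on changes of less than several-fold.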
